A study of Homo sapiens with 4 samples.

Results

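Receptor tyrosine kinases other than the Eph receptors were compared between the doxorubicin-resistant line Cal51R and the line Cal51 it was set against. The genes were chosen by name, from a list of 36 receptors that leaves out the Eph family. Of these, 34 had a row among the 17215 genes of the expression table and 26 had enough reads to be tested. KIT and ROR2 were not analysed here. The 2 groups were Cal51R, labelled as doxorubicin resistant, and Cal51, with 2 RNA sequencing libraries each. Cal51 is an established human breast cancer cell line, described in the title of the study as triple-negative, and doxorubicin is an anthracycline that damages DNA through topoisomerase II. The labels name no genotype, no drug exposure at harvest and no clone, and none tells if separate cultures stand behind the paired libraries. The p-values below therefore reflect only how far the libraries of each line lie apart, a spread that may be technical. The purpose given for the sequencing was to find deubiquitinases involved in doxorubicin resistance, so the receptors were measured along with all other polyadenylated transcripts.

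Receptor tyrosine kinases are single-pass membrane proteins that bind a growth factor or a matrix protein outside the cell and phosphorylate tyrosines inside it. The phosphotyrosines recruit adaptors such as GRB2 and SHC1, which connect the receptor to RAS, to phosphoinositide 3-kinase and to phospholipase C. Ubiquitin ligases of the CBL family, protein tyrosine phosphatases and inhibitors such as ERRFI1 and LRIG1 end or dampen the signal. In breast epithelium and breast carcinoma the ERBB, FGF, insulin-like growth factor and hepatocyte growth factor receptors are the best known of these proteins.

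The libraries held 17852379 and 19854849 expected counts for Cal51R and 21636996 and 18537714 for Cal51. At these depths 3 counts corresponded to 0.139 to 0.175 CPM (counts scaled to a common library size). Across genes, log2(CPM + 1) correlated at Pearson's r = 0.998 within each line and 0.945 to 0.948 between the lines. Epithelial keratin transcripts were abundant in both lines, with KRT8 at a mean of 5159 TPM (the deposited level scaled for transcript length) in Cal51R and 9420 TPM in Cal51. Of 10 epithelial markers 3 rose, 4 fell and 3 did not pass (edgeR), and KRT19, among those that rose, was at 148 TPM in Cal51R and 5.33 TPM in Cal51. The epithelial cadherin CDH1 was low in both, at 1.25 TPM in Cal51R and 0.49 TPM in Cal51. The estrogen receptor ESR1 was at 1.68 TPM in Cal51R and 0.955 TPM in Cal51.

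In these data the resistant line carried a different set of receptor transcripts. MET and PDGFRB, both well expressed in Cal51, were close to absent in Cal51R, and TEK, TIE1 and FGFR3 were also lower by at least 2-fold. ERBB4, DDR2, FLT4, ROR1 and LTK were higher in Cal51R by at least 2-fold. Of the 26 tested receptors, 10 rose, 12 fell and 4 did not pass (edgeR's quasi-likelihood test, adjusted p under 0.05 over all 13674 genes tested). These 22 receptors are 84.6% of those tested, beside 70.8% of all tested genes, of which 35.3% rose and 35.5% fell. With a change of at least 2-fold added, 5 receptors rose and 5 fell, 38.5% of those tested, beside 23.6% of all genes (13.7% higher and 9.87% lower). A change of at least 4-fold was seen for 8 receptors, 30.8% of those tested, beside 9.3% of all genes. The median log2 fold change of the receptors was -0.11 and that of all tested genes was 0.02. Scaling by library totals in place of TMM factors moved the median of all genes to 0.22, and the split of called genes to 64.7% higher in place of 49.9%. Of the 26 tested receptors, PDGFRB and TIE1 were above the filter's level of 0.521 CPM in both libraries of Cal51 only, so they could enter the test through that line alone. The other 24 were above it in all 4 libraries. Where the lines are said not to overlap, both libraries of a line lay above or below both libraries of the other. With 2 libraries against 2, such a separation cannot go below an exact two-sided permutation p of 0.333. AXL and TYRO3 did not overlap either, though neither passed, and the share over all genes was not counted. Every sample here is a whole culture, so fewer cells carrying a transcript and less transcript per cell cannot be told apart.

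**Figure D1:**
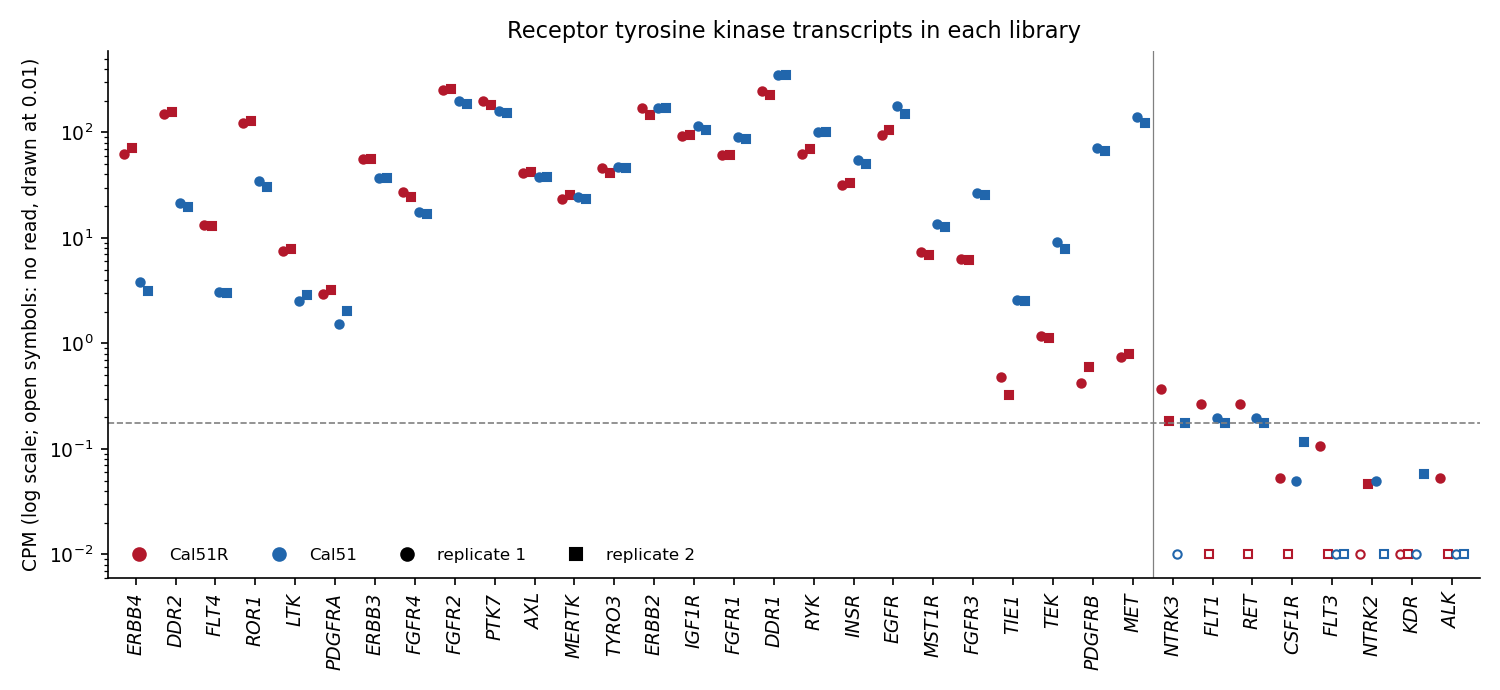
CPM of each of the 34 receptors in each library on a log scale, Cal51R in red left of Cal51 in blue, circles for replicate 1 and squares for replicate 2. Receptors left of the vertical line were tested and run from the highest to the lowest fold change, those right of it were not tested, open symbols at the bottom mark libraries with no read, and the dashed line marks 3 counts in the library with the smallest TMM-scaled total (0.175 CPM). The libraries of a line lie close together, and the lines are furthest apart at ERBB4 on the left and at PDGFRB and MET on the right.

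**Figure D2:**
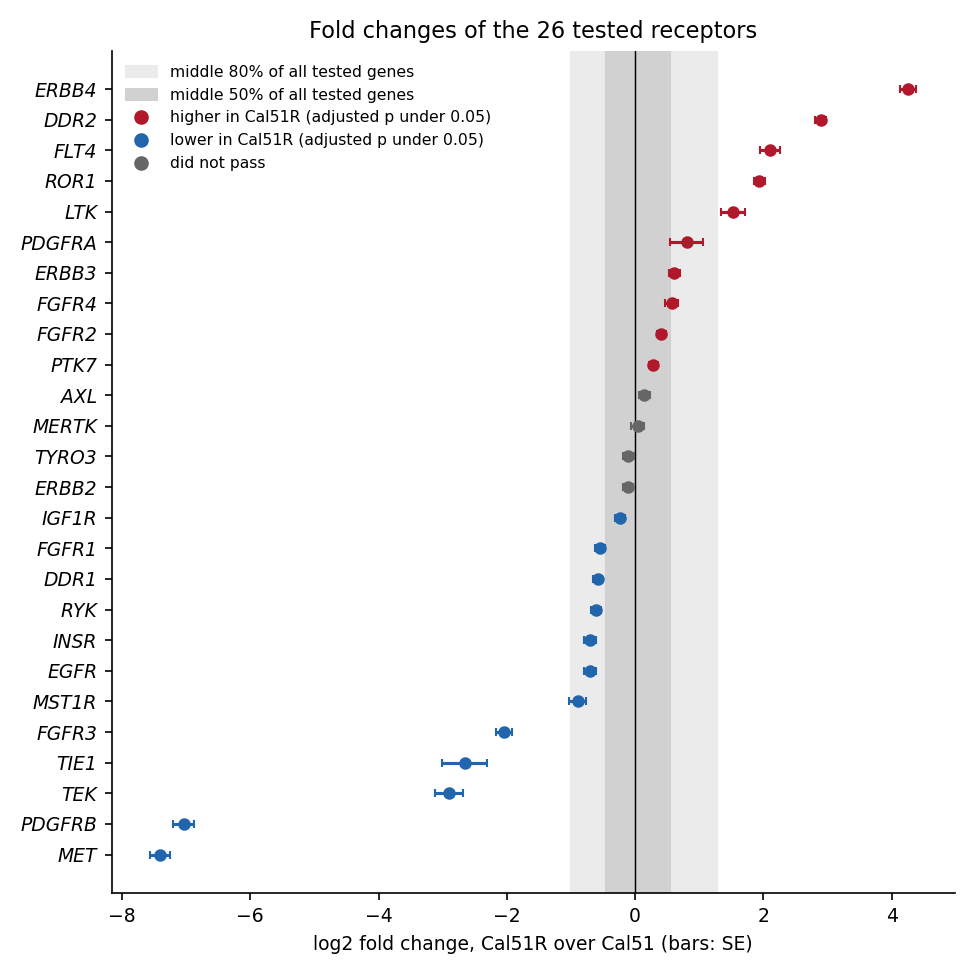
Log2 fold change of Cal51R over Cal51 for the 26 tested receptors, with bars for the SE, coloured by direction where the adjusted p was under 0.05. Grey bands show where the middle 50% and 80% of all tested genes lie. The 5 receptors at the top and the 5 at the bottom lie outside both bands, and the 4 grey points of AXL, MERTK, TYRO3 and ERBB2 lie near 0.

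MET encodes the receptor of hepatocyte growth factor. It was counted at 0.742 and 0.789 CPM in the Cal51R libraries, against 140.4 and 122.3 CPM in the Cal51 libraries. In reads these were 14 and 17 in Cal51R and 2853 and 2102 in Cal51. Both Cal51R libraries were far below both Cal51 libraries. The log2 fold change was -7.41 ± 0.15 (SE, n = 2 libraries per line; edgeR adjusted p = 8.36e-16), 170.0-fold lower in Cal51R. MST1R encodes RON, the receptor of macrophage-stimulating protein and the closest relative of MET. It had 7.37 and 6.82 CPM in Cal51R, against 13.7 and 12.6 CPM in Cal51, and fell 1.86-fold (edgeR adjusted p = 1.84e-05, log2 fold change -0.89 with an SE of 0.13). Hepatocyte growth factor itself was not analysed here. MST1, the ligand of MST1R, averaged 22.7 CPM in Cal51R and 26.02 CPM in Cal51 and did not pass (edgeR adjusted p = 0.0996).

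PDGFRB encodes the beta receptor of platelet-derived growth factor, best known in pericytes and fibroblasts. It was counted at 0.424 and 0.603 CPM in Cal51R, against 71.6 and 66.5 CPM in Cal51, which were 8 and 13 reads in Cal51R and 1454 and 1143 reads in Cal51. The lines did not overlap and the transcript fell 131-fold (edgeR adjusted p = 3.45e-15, log2 fold change -7.04 with an SE of 0.17). PDGFRA, the alpha receptor, was low in both lines, with 2.97 and 3.20 CPM in Cal51R and 1.53 and 2.04 CPM in Cal51. It rose 1.75-fold (edgeR adjusted p = 0.01), a call that was lost in DESeq2 (adjusted p = 0.132) and in edgeR without Cal51 replicate 1 (adjusted p = 0.129). The collagen genes COL1A2, COL1A1 and COL3A1, expressed by fibroblasts, differed in the same direction as PDGFRB. COL1A2 averaged 393 CPM in Cal51R and 1606 CPM in Cal51. The TPM summed over 8 fibroblast and mesenchyme markers was 200.5 to 208.8 in Cal51R and 639.7 to 731.2 in Cal51. Most of that sum was COL1A2, at a mean of 193 TPM in Cal51R and 667 TPM in Cal51. The markers DCN, LUM, FAP and THY1 were each under 1 TPM in all 4 libraries, and 0 of the 8 were at 0 in all of them. The part of these markers in the PDGFRB result was not tested.

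The ERBB receptors bind ligands of the epidermal growth factor and neuregulin families. ERBB4, a neuregulin receptor, was counted at 62.7 and 70.7 CPM in Cal51R, against 3.79 and 3.14 CPM in Cal51. It was the receptor with the largest rise, 19.1-fold, with no overlap between the lines (edgeR adjusted p = 6.53e-14, log2 fold change 4.26 with an SE of 0.13). ERBB3, which has little kinase activity of its own and signals in dimers with ERBB2 or EGFR, had 56.2 and 56.6 CPM in Cal51R and 36.8 and 36.9 CPM in Cal51, and rose 1.53-fold (edgeR adjusted p = 7.26e-06). EGFR, the epidermal growth factor receptor, had 94.0 and 105.6 CPM in Cal51R and 176 and 149 CPM in Cal51, and fell 1.63-fold (edgeR adjusted p = 3e-06). The 2 neuregulin-binding receptors were thus higher in Cal51R and EGFR was lower. ERBB2, the dimer partner that binds no known ligand, had 171 and 146 CPM in Cal51R, within and below the 171 and 170.5 CPM of Cal51. Its log2 fold change was -0.11 ± 0.08 (SE), with a 95% interval of 0.821 to 1.04 for the fold change (edgeR adjusted p = 0.229). Without Cal51R replicate 1 it was called lower (adjusted p = 0.00975 in edgeR, log2 fold change -0.23), and scaling by library totals turned its sign to 0.09. ERBB2 overlaps MIEN1 in the annotation, the only such overlap with a gene of the table among the members, and their reads cannot be told apart there because counting by strand is not given.

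The discoidin domain receptors are activated by collagen. DDR2, the member best known in mesenchymal cells, was counted at 148 and 156 CPM in Cal51R, against 21.5 and 19.5 CPM in Cal51. The lines did not overlap, and DDR2 rose 7.41-fold (edgeR adjusted p = 7.17e-14, log2 fold change 2.89 with an SE of 0.09). DDR1, known from epithelial cells, had 246 and 224 CPM in Cal51R and 352 CPM in both libraries of Cal51, and fell 1.50-fold (edgeR adjusted p = 3.18e-06). The fibrillar collagen genes COL1A2, COL3A1 and COL1A1, which encode ligands of these receptors, were lower in Cal51R. Other collagen genes were not examined here. COL1A2 fell 4.09-fold (edgeR adjusted p = 1.35e-12), and COL3A1 fell 14.8-fold at a low level, with 0.146 CPM in Cal51R and 2.27 CPM in Cal51 (edgeR adjusted p = 1.08e-06). COL1A1 fell 1.46-fold, with 7.24 CPM in Cal51R and 10.5 CPM in Cal51 (edgeR adjusted p = 0.00332), a call lost with limma on log2(FPKM + 1) (adjusted p = 0.0504). DDR2 and the summed fibroblast markers, which were mostly COL1A2, thus differed in opposite directions.

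The sequences just upstream of the starts are shown for MET and PDGFRB, which fell most, and ERBB4 and DDR2, which rose most. They differ widely in CpG dinucleotides, the sites of DNA methylation, which was not measured here. Each is the 250 bases before the RefSeq gene start (GRCh38.p14), 5′ to 3′ on the strand of the gene, with CpG in capitals. MET lies at chr7:116671946-116672195 on the plus strand, PDGFRB at chr5:150155846-150156095 on the minus strand, ERBB4 at chr2:212538803-212539052 on the minus strand and DDR2 at chr1:162630613-162630862 on the plus strand.
MET: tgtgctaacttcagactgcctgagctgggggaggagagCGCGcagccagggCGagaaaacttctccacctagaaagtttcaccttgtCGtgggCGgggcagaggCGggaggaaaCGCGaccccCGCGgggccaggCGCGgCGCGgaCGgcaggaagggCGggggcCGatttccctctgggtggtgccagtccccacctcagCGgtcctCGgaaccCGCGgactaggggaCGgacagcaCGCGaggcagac
PDGFRB: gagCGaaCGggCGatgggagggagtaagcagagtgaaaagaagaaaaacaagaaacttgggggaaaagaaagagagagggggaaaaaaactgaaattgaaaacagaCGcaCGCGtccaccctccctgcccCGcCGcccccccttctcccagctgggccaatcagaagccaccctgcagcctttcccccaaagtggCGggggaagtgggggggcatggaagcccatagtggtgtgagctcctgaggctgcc
ERBB4: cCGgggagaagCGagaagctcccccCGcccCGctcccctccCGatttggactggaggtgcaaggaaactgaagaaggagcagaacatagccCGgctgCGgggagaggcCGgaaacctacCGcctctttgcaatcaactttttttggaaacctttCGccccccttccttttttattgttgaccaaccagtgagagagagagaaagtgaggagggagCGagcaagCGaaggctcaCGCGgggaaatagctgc
DDR2: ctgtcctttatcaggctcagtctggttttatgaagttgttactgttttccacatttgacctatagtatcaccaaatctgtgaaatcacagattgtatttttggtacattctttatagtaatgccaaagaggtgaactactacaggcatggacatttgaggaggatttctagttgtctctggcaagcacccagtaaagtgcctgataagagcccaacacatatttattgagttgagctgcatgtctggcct

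The window of MET held 24 CpG at 68.4% GC, that of ERBB4 14 CpG at 57.2% GC and that of PDGFRB 9 CpG at 58.4% GC. The window of DDR2 held 0 CpG at 40% GC, and it is the most upstream of 3 RefSeq starts of that gene. Over 27305 RefSeq promoters of this length, the first listed for each gene, the median was 11 CpG, with quartiles of 3 and 23, and 58% GC. These are meant by all promoters below. For the receptors the start nearest the 5′ end of the gene was taken instead, so the rules differ for genes with several starts. The letters GGGCGG, searched on both strands, were found 2 times for MET and 1 time each for PDGFRB and ERBB4, beside 42.3% of all promoters with a match. The letters TATAAA, also searched on both strands, were found 1 time for DDR2, beside 11.1% of all promoters. TGANTCA, the third motif searched, on both strands, had 0 matches in the 4 windows, beside 6.6% of all promoters. Matches of different motifs cannot overlap by their letters, and a match describes the sequence only. Among the other receptors with changes of at least 2-fold, the same window held 40 CpG for FGFR3, 24 for ROR1, 14 for LTK, 5 for TEK and 1 for TIE1. FLT4 also belongs to this group, but no promoter entry was available for it. Receptors of high and of low CpG number thus stood among both those that rose and those that fell.

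ROR1, RYK and PTK7 belong to the Wnt signalling receptors with weak or absent kinase activity. ROR1, an oncofetal receptor that binds WNT5A, was counted at 123 and 128 CPM in Cal51R, against 34.7 and 30.7 CPM in Cal51. It rose 3.83-fold with no overlap between the lines (edgeR adjusted p = 7.29e-12, log2 fold change 1.94 with an SE of 0.09). RYK had 62.2 and 69.4 CPM in Cal51R and 101.7 and 99.97 CPM in Cal51, and fell 1.53-fold (edgeR adjusted p = 4.32e-06). PTK7, a co-receptor of planar cell polarity signalling, had 199 and 183 CPM in Cal51R and 159 and 154 CPM in Cal51. It rose 1.22-fold (edgeR adjusted p = 0.00275), a call that was lost without Cal51 replicate 2 (edgeR adjusted p = 0.0675). ROR1 and PTK7 were thus higher and RYK lower in Cal51R.

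The fibroblast growth factor receptors moved in different directions. FGFR3 was counted at 6.36 and 6.22 CPM in Cal51R, against 26.6 and 25.3 CPM in Cal51, and fell 4.12-fold with no overlap between the lines (edgeR adjusted p = 2.42e-10, log2 fold change -2.04 with an SE of 0.12). FGFR1 had 60.7 and 60.8 CPM in Cal51R and 91.2 and 85.9 CPM in Cal51, and fell 1.46-fold (edgeR adjusted p = 1.21e-05). FGFR2, the member of the family with the highest TPM in every library, had 254 and 257 CPM in Cal51R and 199 and 186 CPM in Cal51, and rose 1.33-fold (edgeR adjusted p = 0.000103). FGFR4 had 27.0 and 24.3 CPM in Cal51R and 17.7 and 16.8 CPM in Cal51, and rose 1.48-fold (edgeR adjusted p = 0.000152). In summed TPM, which compares levels per transcript length, the family made up 23.2% of all receptor transcripts in Cal51R and 18.7% in Cal51.

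The angiopoietin receptor TEK, also named TIE2, and its partner TIE1 are known from endothelial cells. TEK was counted at 1.17 and 1.11 CPM in Cal51R, against 9.11 and 7.91 CPM in Cal51, and fell 7.46-fold (edgeR adjusted p = 4.98e-09, log2 fold change -2.90 with an SE of 0.21). TIE1 had 0.477 and 0.325 CPM in Cal51R, 9 and 7 reads, against 2.56 and 2.50 CPM in Cal51, 52 and 43 reads, and fell 6.30-fold (edgeR adjusted p = 4.91e-06, log2 fold change -2.66 with an SE of 0.35). Both receptors of this pair were thus lower in Cal51R, at levels of a few CPM. FLT4, the receptor of vascular endothelial growth factors C and D in lymphatic endothelium, moved the other way. It had 13.3 and 12.9 CPM in Cal51R, against 3.05 and 3.03 CPM in Cal51, and rose 4.29-fold with no overlap between the lines (edgeR adjusted p = 4.78e-09, log2 fold change 2.10 with an SE of 0.16). The other vascular endothelial growth factor receptors had few reads, with 0 and 0 for KDR in Cal51R and 0 and 1 in Cal51, and 5 and 0 for FLT1 in Cal51R and 4 and 3 in Cal51. The summed TPM of 8 endothelial markers was 122.3 to 127.8 in Cal51R and 74.3 to 78.4 in Cal51, and of the 5 that were tested 2 rose and 2 fell (edgeR). PECAM1 had a mean of 94.8 TPM in Cal51R and 30.0 TPM in Cal51, and EGFL7 one of 26.1 TPM in Cal51R and 43.8 TPM in Cal51. Of the 8 genes, 4 were under 1 TPM in every library and 0 were at 0 in all of them. The part of these markers in the TEK, TIE1 and FLT4 results was not tested.

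LTK, the relative of ALK that binds ALKAL ligands, was counted at 7.53 and 7.84 CPM in Cal51R, against 2.51 and 2.85 CPM in Cal51. It rose 2.88-fold with no overlap between the lines (edgeR adjusted p = 1.64e-06, log2 fold change 1.52 with an SE of 0.18). ALK itself had 1 and 0 reads in Cal51R and 0 and 0 in Cal51. The insulin receptor INSR had 31.7 and 32.9 CPM in Cal51R and 54.7 and 50.3 CPM in Cal51, and fell 1.63-fold (edgeR adjusted p = 3.08e-06). The insulin-like growth factor receptor IGF1R had 91.9 and 94.2 CPM in Cal51R and 114.5 and 104.9 CPM in Cal51, and fell 1.18-fold (edgeR adjusted p = 0.0112). This small change was not called without Cal51 replicate 1 (adjusted p = 0.207 in edgeR, with a log2 fold change of -0.18) or with library totals as the scale (0.681, with -0.04).

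The TAM receptors AXL, TYRO3 and MERTK, which bind GAS6 and protein S and take part in the clearance of dying cells, did not pass the test. AXL had 41.6 and 42.0 CPM in Cal51R and 37.8 and 38.0 CPM in Cal51. Its libraries did not overlap between the lines, and the 95% interval of the fold change was 0.971 to 1.25 (edgeR adjusted p = 0.155). TYRO3 had 45.5 and 41.2 CPM in Cal51R and 47.3 and 45.9 CPM in Cal51, with an interval of 0.816 to 1.06 (edgeR adjusted p = 0.295). MERTK had 23.6 and 25.6 CPM in Cal51R and 24.3 and 23.6 CPM in Cal51, with an interval of 0.889 to 1.19 (edgeR adjusted p = 0.731). For these 3 receptors the intervals span no change and small changes in both directions. With library totals as the scale, AXL (log2 fold change 0.34, edgeR adjusted p = 0.00234) and MERTK (0.24, edgeR adjusted p = 0.0458) were called higher.

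The receptors that the filter left out of the test are those with almost no reads in either line. Besides KDR, FLT1 and ALK, they were FLT3 with 2 and 0 reads in Cal51R and 0 and 0 in Cal51, CSF1R with 1 and 0 in Cal51R and 1 and 2 in Cal51, and RET with 5 and 0 in Cal51R and 4 and 3 in Cal51. NTRK2 had 0 and 1 reads in Cal51R and 1 and 0 in Cal51, and NTRK3 had 7 and 4 in Cal51R and 0 and 3 in Cal51. FLT3 and CSF1R are receptors of blood cells and NTRK2 and NTRK3 of neurons. Markers of these cells were low as well, with a summed TPM of 8.11 to 9.67 in Cal51R and 21.5 to 21.7 in Cal51 over 9 blood and immune genes, led by CD68, and of 6.47 to 7.71 in Cal51R and 2.91 to 3 in Cal51 over 7 genes of neurons and glia, led by SNAP25. Differences among these 8 genes were not detectable at this depth.

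Compared per transcript length within each library, the receptor pool had the same leading members in both lines but a different second tier. DDR1 ranked first and FGFR2 second in every library. DDR1 took 21.8% and 19.0% of the summed receptor TPM in Cal51R and 26.7% and 28.4% in Cal51, and FGFR2 took 16.5% and 17.7% in Cal51R and 12.0% and 11.2% in Cal51. ROR1 took 5.72% and 6.13% in Cal51R and 1.49% and 1.44% in Cal51, and DDR2 took 3.99% and 4.52% in Cal51R and 0.553% and 0.519% in Cal51. MET held rank 25 and 24 in Cal51R and rank 6 in both libraries of Cal51, where it made up 5.36% and 4.78% of the pool. PDGFRB held rank 27 and 25 in Cal51R and rank 9 in both libraries of Cal51. DDR2 held rank 7 in both libraries of Cal51R and rank 20 in both of Cal51, and ERBB4 rank 16 in both of Cal51R and ranks 25 and 26 in Cal51. The summed TPM of the 34 receptors was 911.9 and 937.8 in Cal51R and 896.2 and 821.6 in Cal51. Over all tested genes the median log2 ratio of mean TPM, Cal51R over Cal51, was 0.254, beside 0.02 for the edgeR fold changes. Levels in TPM therefore lean higher in Cal51R than the fold changes do, and the sums are not a measure of change between the lines. At least 1 TPM was reached by 22 receptors in each Cal51R library and 24 in each Cal51 library, and 9 receptors made up 80% of the pool in every library. These shares are descriptions, since with 2 libraries against 2 an exact two-sided permutation test cannot go below p = 0.333.

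**Figure D3:**
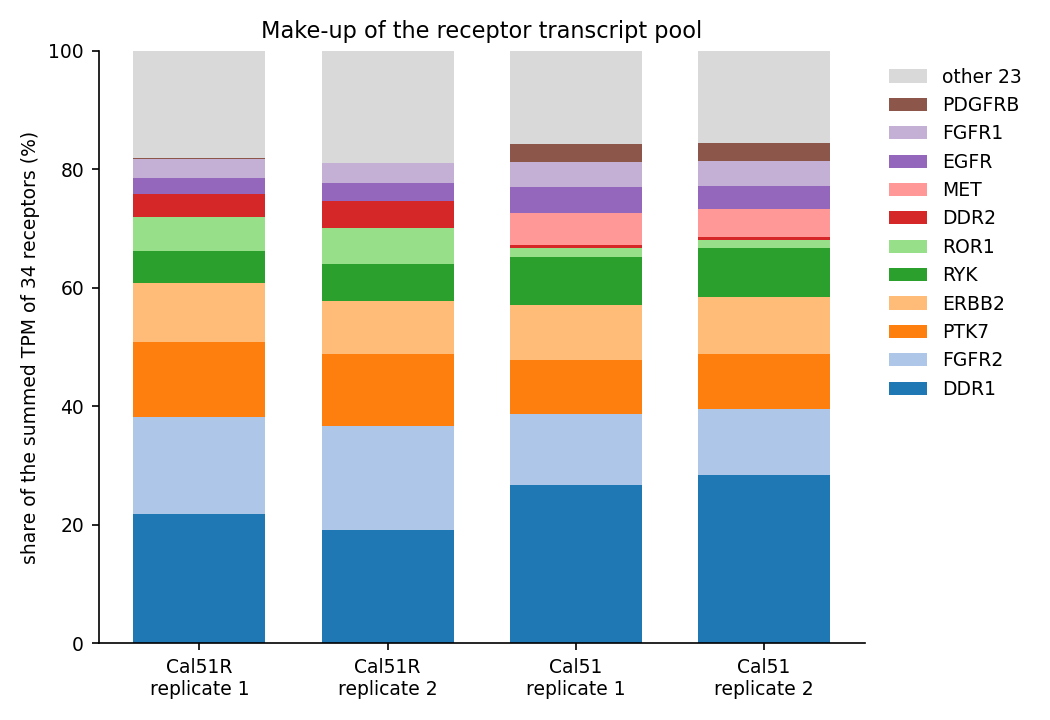
Share of the summed TPM of the 34 receptors, in percent, taken by each of 11 receptors in each library, Cal51R on the left and Cal51 on the right, with the other 23 receptors in grey. DDR1 and FGFR2 form the largest blocks of single receptors in all 4 bars. The red and light green blocks of DDR2 and ROR1 are taller in Cal51R. The pink and brown blocks of MET and PDGFRB stand out in Cal51 and are close to 0 in Cal51R.

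The position of the receptors on the chromosomes was not used to choose them. MET lies at chr7:116672196-116798377 (GRCh38.p14, the assembly the submitters' processing notes call hg38), and all 8 tested genes within 1 Mb of it were also lower in Cal51R, beside 35.5% of all tested genes. Their median log2 fold change was -1.38, and 5 of the 8 fell at least 2-fold, beside 9.87% of all tested genes. They included CAPZA2, a capping protein subunit of actin filaments, with 48.6 CPM in Cal51R and 162 CPM in Cal51, and CAV1 and CAV2, the caveolins, with 66.4 and 74.3 CPM in Cal51R and 204 and 164 CPM in Cal51. TES, which encodes a focal adhesion protein, had 102 CPM in Cal51R and 202 CPM in Cal51. No neighbour of at least 10 CPM in Cal51 approached the fold change of MET itself, and the furthest of all, TFEC at -4.79, was under 1 CPM in both lines. TFEC and CFTR averaged 0.0232 and 0.325 CPM in Cal51R, below the filter's level of 0.521 CPM. Both could therefore enter the test through Cal51 alone, and both are among the 8 genes and the 5 that fell at least 2-fold. The number of copies of this region was not measured.

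PDGFRB lies at chr5:150113839-150155845, and of the 22 tested genes within 1 Mb of it 6 rose, 9 fell and 7 did not pass, with a median log2 fold change of -0.12. ERBB4 spans chr2:211375717-212538802 and had 4 tested genes within 1 Mb, IKZF2, LANCL1, CPS1 and SPAG16. All 4 rose, by log2 fold changes of 0.28 to 0.96, beside 35.3% of all tested genes. DDR2 lies at chr1:162630863-162787405, and of its 10 tested neighbours 5 rose, 2 fell and 3 did not pass, with a median of 0.47. Of the 10 neighbours of ROR1, at chr1:63774017-64181498, 4 rose and 5 fell, and of the 27 neighbours of FGFR3, at chr4:1793293-1808867, 7 rose and 12 fell. Of the 5 neighbours of TEK, at chr9:27109225-27230174, 3 rose and 0 fell, against the direction of TEK itself. Neighbours of FLT4, at chr5:180601506-180650298, were mixed, with 5 of 18 higher and 7 lower. The same held for TIE1, at chr1:43300982-43323108, with 11 of 36 higher and 14 lower, and for LTK, at chr15:41503637-41513827, with 9 of 37 higher and 9 lower. All these counts of neighbours stand beside 35.3% of all tested genes higher and 35.5% lower.

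**Figure D4:**
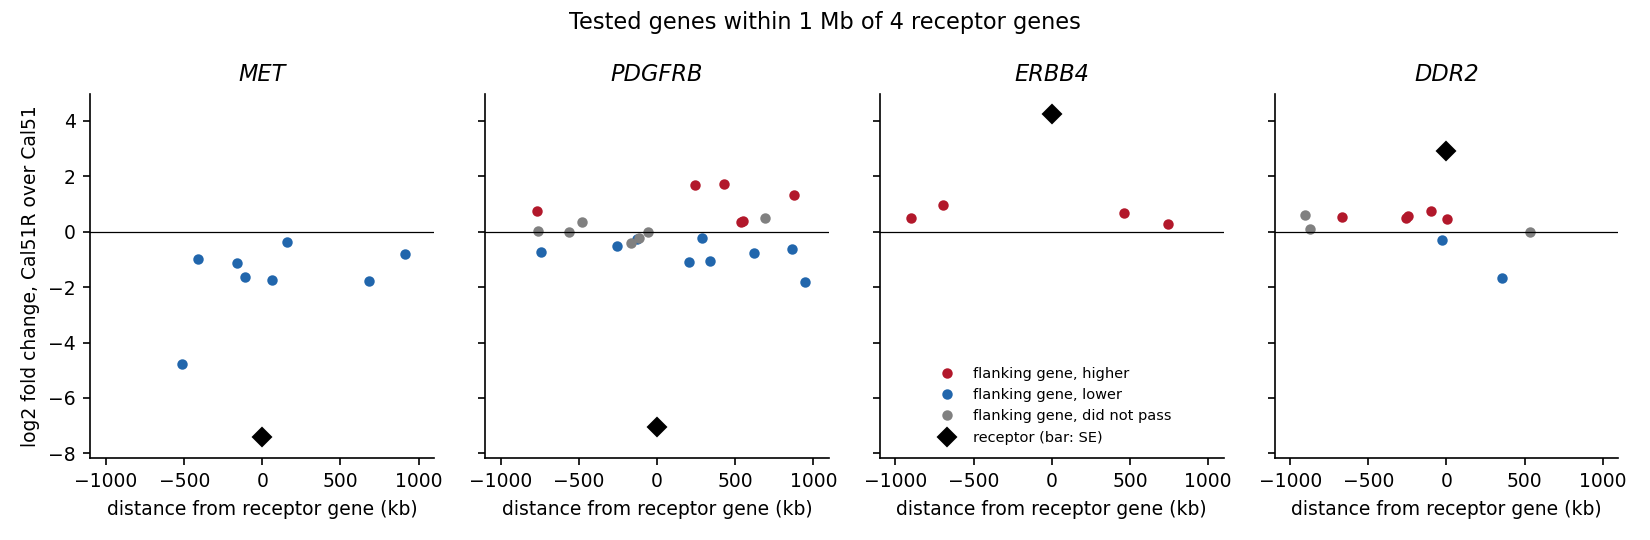
Log2 fold change of Cal51R over Cal51 for tested genes within 1 Mb of MET, PDGFRB, ERBB4 and DDR2, by their distance from the receptor gene in kb, with the receptor as a black diamond at 0 and its SE as a bar. All 8 neighbours of MET lie below 0 and all 4 neighbours of ERBB4 above 0, while those of PDGFRB lie on both sides and those of DDR2 mostly above 0.

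Of 62 ligand genes of receptor tyrosine kinases that were listed, 52 had a row and 32 were tested, of which 13 rose, 11 fell and 8 did not pass (edgeR). These 24 are 75% of those tested, beside 70.8% of all genes, and their median log2 fold change was 0.38, beside 0.02 for all genes. Of the ligands of EGFR, EREG, AREG and HBEGF fell. EREG, epiregulin, had 0.424 and 0.650 CPM in Cal51R, against 31.8 and 28.5 CPM in Cal51, and fell 54.9-fold (edgeR adjusted p = 2.29e-13). AREG, amphiregulin, had 0.159 and 0.278 CPM in Cal51R, against 3.84 and 4.48 CPM in Cal51, and fell 18.1-fold (edgeR adjusted p = 3.47e-08). HBEGF, the heparin-binding ligand of EGFR and ERBB4, had 1.91 and 1.11 CPM in Cal51R, against 7.29 and 8.26 CPM in Cal51, and fell 5.19-fold (edgeR adjusted p = 1.41e-07). EREG and AREG were not above the filter's level of 0.521 CPM in both libraries of Cal51R, so they could enter the test through Cal51 alone. EGFR fell as well, by a smaller factor. EGF averaged 1.14 CPM in Cal51R and 0.790 CPM in Cal51 and did not pass (edgeR adjusted p = 0.199). TGFA had 2 and 1 reads in Cal51R and 1 and 0 in Cal51, EPGN had 1 and 2 in Cal51R and 0 and 2 in Cal51, and neither was tested.

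Of the neuregulins, which bind ERBB4, NRG1 fell and NRG2 was called higher near the limit of detection. NRG1, neuregulin 1, had 19.7 and 22.0 CPM in Cal51R, against 37.4 and 42.7 CPM in Cal51, and fell 1.91-fold (edgeR adjusted p = 5.73e-07). NRG2 had 11 and 11 reads in Cal51R and 4 and 4 in Cal51 (edgeR adjusted p = 0.0411). Its call was lost without Cal51 replicate 1 (edgeR adjusted p = 0.248), without Cal51 replicate 2 (0.162), without Cal51R replicate 1 (0.168) and without Cal51R replicate 2 (0.107). NRG4 had 1.38 and 2.74 CPM in Cal51R and 1.58 and 1.34 CPM in Cal51 and did not pass, except without Cal51R replicate 1 (adjusted p = 0.0184 in edgeR, log2 fold change 0.90). BTC, betacellulin, a ligand of both EGFR and ERBB4, had 9 and 16 reads in Cal51R and 1 and 0 in Cal51. It was left out by the filter and was called higher in edgeR without the filter (adjusted p = 0.000185) and in DESeq2 (adjusted p = 0.0252). NRG3 was not analysed here.

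Among ligands of the PDGF receptors, PDGFD and PDGFC fell and PDGFA rose. PDGFD, a ligand of PDGFRB, had 3.50 and 3.39 CPM in Cal51R, against 21.2 and 20.4 CPM in Cal51, and fell 6.04-fold (edgeR adjusted p = 7.42e-11). PDGFC averaged 75.4 ± 5.24 CPM in Cal51R and 139 ± 6.15 CPM in Cal51 (SD, n = 2 each) and fell 1.84-fold (edgeR adjusted p = 5e-08). PDGFA averaged 23.7 CPM in Cal51R and 13.9 CPM in Cal51 and rose 1.70-fold (edgeR adjusted p = 1.05e-05). PDGFB, which binds both receptors, averaged 42.2 CPM in Cal51R and 51.4 CPM in Cal51 and fell 1.22-fold (edgeR adjusted p = 0.00996). That call was lost without Cal51 replicate 1 (edgeR adjusted p = 0.106), without Cal51R replicate 2 (0.057) and with library totals as the scale (0.379).

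CSF1, the macrophage growth factor, had 482 and 457 CPM in Cal51R, against 138 and 132 CPM in Cal51, and rose 3.47-fold (edgeR adjusted p = 3.42e-12). IL34, the other ligand of CSF1R, averaged 5.08 CPM in Cal51R and 2.08 CPM in Cal51 and rose 2.47-fold (edgeR adjusted p = 6.37e-05), while CSF1R itself had at most 2 reads in any library. KITLG, stem cell factor, averaged 23.8 ± 1.82 CPM in Cal51R and 9.71 ± 0.476 CPM in Cal51 (SD, n = 2 each) and rose 2.45-fold (edgeR adjusted p = 5.85e-08). FGF2, basic fibroblast growth factor, had 130.1 and 149 CPM in Cal51R, against 70.5 and 64.2 CPM in Cal51, and rose 2.07-fold (edgeR adjusted p = 1.55e-08). FGF18, a ligand of FGFR3, averaged 65.8 CPM in Cal51R and 41.6 CPM in Cal51 and rose 1.58-fold (edgeR adjusted p = 3.4e-06). These 2 growth factors were higher in the line in which FGFR3 and FGFR1 were lower and FGFR2 and FGFR4 higher. FGF5, at 1.32 CPM in Cal51R and 0.490 CPM in Cal51, rose 2.62-fold (edgeR adjusted p = 0.00776). FGF7, at 1.16 CPM in Cal51R and 2.16 CPM in Cal51, fell 1.85-fold (edgeR adjusted p = 0.0108). Both calls were lost in DESeq2 (adjusted p = 0.109 and 0.133), and FGF21 did not pass (edgeR adjusted p = 0.597). The other fibroblast growth factors with a row had at most 7 reads in any library and were not tested.

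ALKAL2, the ligand of LTK and ALK, had 1.59 and 1.58 CPM in Cal51R, against 0.148 and 0.407 CPM in Cal51, and rose 5.81-fold (edgeR adjusted p = 9.8e-05), the same direction as LTK. The Cal51 values rest on 3 and 7 reads, and the fold change was 3.82 without Cal51 replicate 1 and 10.3 without Cal51 replicate 2. The ligands of FLT4 and TEK had too few reads for a test. VEGFC had 0 and 2 reads in Cal51R and 0 and 1 in Cal51, and VEGFD had 5 and 8 in Cal51R and 3 and 2 in Cal51. ANGPT1 had 0 and 0 reads in Cal51R and 2 and 0 in Cal51, ANGPT2 had 6 and 14 in Cal51R and 6 and 4 in Cal51, and ANGPT4 had 5 and 12 in Cal51R and 4 and 4 in Cal51. Of the TAM ligands, PROS1 fell 2.31-fold, with 5.90 CPM in Cal51R and 13.6 CPM in Cal51 (edgeR adjusted p = 6.98e-07). GAS6 rose 1.42-fold, with 22.7 CPM in Cal51R and 16.0 CPM in Cal51 (edgeR adjusted p = 0.000397).

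**Figure D5:**
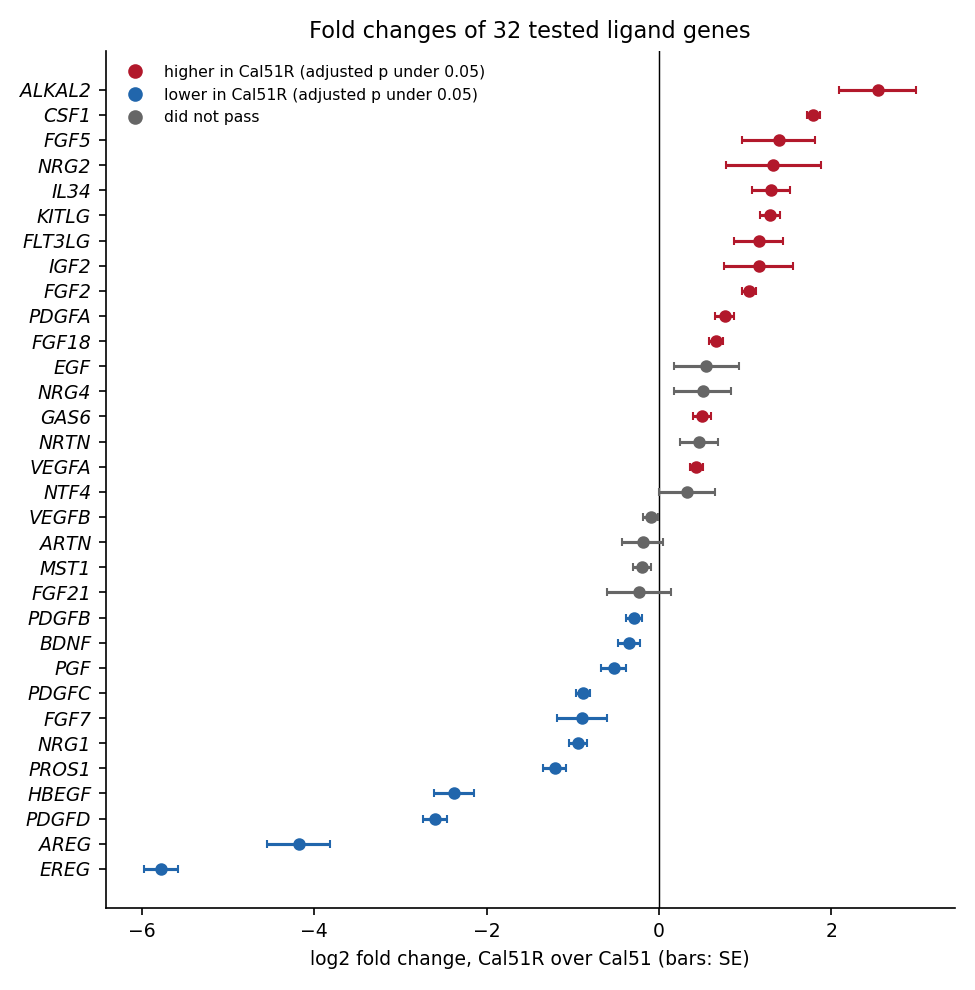
Log2 fold change of Cal51R over Cal51 for the 32 tested ligand genes, with bars for the SE, coloured by direction where the adjusted p was under 0.05. EREG, AREG, PDGFD and HBEGF lie lowest, with changes of over 5-fold, and ALKAL2 and CSF1 lie highest.

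Of 12 tested co-receptors and ligand-binding proteins, 7 rose, 3 fell and 2 did not pass (edgeR), 83.3% called beside 70.8% of all genes, and their median log2 fold change was 0.43. Among the binding proteins of insulin-like growth factors, IGFBP3 averaged 570.8 CPM in Cal51R and 168 CPM in Cal51 and rose 3.39-fold (edgeR adjusted p = 3.21e-12). IGFBP2 averaged 17.1 CPM in Cal51R and 1.81 CPM in Cal51 and rose 9.42-fold (edgeR adjusted p = 3.93e-11). IGFBP7 averaged 276 CPM in Cal51R and 602 CPM in Cal51 and fell 2.18-fold (edgeR adjusted p = 1.88e-09), so the family did not move in one direction. IGFBP1 was low throughout, with 1 and 2 reads in Cal51R and 17 and 10 in Cal51, and fell (edgeR adjusted p = 0.000469). The neuropilins NRP1 and NRP2, co-receptors of vascular endothelial growth factors and semaphorins, rose 1.53-fold (edgeR adjusted p = 2.94e-06) and 1.51-fold (edgeR adjusted p = 1.71e-05). FGFRL1, a fibroblast growth factor receptor without a kinase domain, averaged 18.6 ± 0.146 CPM in Cal51R and 50.4 ± 3.55 CPM in Cal51 (SD, n = 2 each) and fell 2.71-fold (edgeR adjusted p = 1.31e-09), in the direction of FGFR3.

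All 42 adaptors and proximal effectors had a row and 38 were tested. Of these 14 rose, 16 fell and 8 did not pass (edgeR), 78.9% called beside 70.8% of all genes, with a median log2 fold change of -0.04. The number that fell depended on the scale and was 9 with library totals. The docking proteins GAB1 and GAB2, which carry SHP2 and phosphoinositide 3-kinase to receptors such as MET and EGFR, rose 2.20-fold (edgeR adjusted p = 7.97e-07) and 1.80-fold (edgeR adjusted p = 4.24e-08). GRB10, an adaptor that restrains the insulin and IGF1 receptors, rose 1.87-fold (edgeR adjusted p = 3.22e-08). In the other direction, PIK3R1, the regulatory subunit of phosphoinositide 3-kinase, averaged 54.8 CPM in Cal51R and 122 CPM in Cal51 and fell 2.23-fold (edgeR adjusted p = 3.04e-09). SHC1 averaged 86.4 CPM in Cal51R and 174 CPM in Cal51 and fell 2.01-fold (edgeR adjusted p = 7.21e-09). IRS2, the insulin receptor substrate, averaged 21.0 CPM in Cal51R and 50.4 CPM in Cal51 and fell 2.41-fold (edgeR adjusted p = 1.15e-08). DOK1, an adaptor that dampens receptor signalling, fell 2.67-fold at 2.71 CPM in Cal51R and 7.25 CPM in Cal51 (edgeR adjusted p = 5.32e-06).

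Of 29 tested negative regulators 13 rose, 7 fell and 9 did not pass (edgeR), 69% called beside 70.8% of all genes, so the share was close to the background. With library totals as the scale 21 rose. The CBL ubiquitin ligases split. CBLB averaged 15.8 CPM in Cal51R and 5.63 CPM in Cal51 and rose 2.81-fold (edgeR adjusted p = 1.21e-07), and CBLC averaged 1.68 CPM in Cal51R and 19.4 CPM in Cal51 and fell 11.7-fold (edgeR adjusted p = 2.32e-11). The LRIG membrane proteins also split. LRIG1, which promotes the degradation of ERBB receptors, had 105 and 109.8 CPM in Cal51R, against 24.7 and 23.3 CPM in Cal51, and rose 4.47-fold (edgeR adjusted p = 1.92e-12), while LRIG3 fell 2.13-fold (edgeR adjusted p = 7.07e-08). ERRFI1, also named MIG6, an inhibitor that binds the kinase domain of EGFR, had 135 and 139 CPM in Cal51R, against 511 and 482 CPM in Cal51, and fell 3.61-fold (edgeR adjusted p = 2.27e-12). SH3KBP1, which links CBL to endocytosis, rose 1.77-fold (edgeR adjusted p = 1.54e-07). Of the receptor phosphatases, PTPRK rose 1.86-fold (edgeR adjusted p = 9.35e-08) and PTPRF fell 1.46-fold (edgeR adjusted p = 8.77e-06).

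Of 8 further genes of this receptor class that stand outside the named 36, 4 were tested, 2 rose and 0 fell (edgeR), 50% called beside 70.8% of all genes. They were LMTK3, at 7.26 CPM in Cal51R and 1.73 CPM in Cal51, a 4.17-fold rise (edgeR adjusted p = 1.36e-07), and STYK1, with 13 and 13 reads in Cal51R and 2 and 1 in Cal51 (edgeR adjusted p = 0.000957). AATK had 34 and 38 reads in Cal51R and 28 and 12 in Cal51 and did not pass (edgeR adjusted p = 0.0587), except without Cal51 replicate 1 (0.0182). LMTK2 did not pass (edgeR adjusted p = 0.754).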

How the data were processed

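Polyadenylated RNA of 4 libraries, 2 of Cal51R and 2 of Cal51, was sequenced as DNA nanoballs, per the labels' protocols. Per the submitters' processing notes, RSEM 1.2.8, Bowtie2 2.2.5, HISAT2 2.1.0 and DESeq were used with hg38, with no step given for each. The gene annotation, and whether reads were counted by strand, is not stated in the labels. The deposited table holds read counts, FPKM and TPM for each gene, per the file headers. The read counts the authors deposited are expected counts, 27% to 31.8% of which were exactly whole in each library. The FPKM deposited by the authors served alternatives only. Their TPM served to compare levels between genes and to describe levels and sums in each line. Libraries were matched to columns by title, and 0 columns of per-sample values were left over.

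Expected counts were rounded and tested with edgeR 4.0.16 in R 4.3.3 (quasi-likelihood test, TMM factors, filterByExpr with a minimum count of 10, the line as the only term). Of 17215 genes 13674 were tested, and p-values were adjusted over all of these by the Benjamini-Hochberg method. Besides EREG and AREG, the named genes IGFBP1, COL3A1, TFEC and CFTR could enter the test through Cal51 alone. NRG2, ALKAL2, FGF5 and STYK1 could enter it through Cal51R alone. "Rose" and "fell" mean an adjusted p under 0.05. Fold changes are Cal51R over Cal51, SE is the size of the log2 fold change over the square root of the F statistic, and CPM uses TMM-scaled totals (factors 1.06 and 1.09 for Cal51R, 0.939 and 0.927 for Cal51). The common coefficient of variation that edgeR fitted, the spread between replicates beyond counting noise, was 5.83%. The paired libraries differed beyond sampling noise (chi-square per gene 6.91 for Cal51R and 4.5 for Cal51), so they were not treated as one library deposited in duplicate. Whether that difference is biological or technical is not known. Without molecular identifiers, limits set by counts cover counting error only.

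The members, gene lists, tests and the rule for naming genes were chosen with earlier results of these data known. Members past the threshold with a change of at least 2-fold and a mean of at least 1 CPM are described in full. From each list the genes with the smallest p are named, up to 4 in each direction, with the ligands of the members described in full, and from each marker list the most abundant gene. Collagens, IL34, the TAM ligands, MST1, KRT19, CDH1, EGFL7, ligands of EGFR alone and the flanking genes that are named were picked after their values were seen. So were FGF5, FGF7 and FGF21. A gene that the rule takes is not reported here. Positions and promoters come from RefSeq tables for GRCh38.p14, which matched 34 of 34 members for position and 31 for promoters. As alternatives, each library was left out in turn, the replicate number was added as a block, and limma 3.58.1 was run on log2(FPKM + 0.1) and log2(FPKM + 1). DESeq2 1.42.0, scaling by RLE factors or by library totals (with and without the 10 highest genes), a filter of 5 CPM in 2 libraries and no filter on counts were the others. The test functions were tested on simulated counts.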

Additional observations from a re-analysis of the deposited data

How the results depend on the processing

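Of 358 values of the 26 receptors under 14 alternatives, 341 kept their call or lack of one, 9 lost a call and 8 gained one. Direction reversed for 0 values that were called in either fit. ERBB2, TYRO3 and MERTK changed sign in some alternatives in which they were not called. For 20 receptors the call held in all alternatives run. The exceptions were ERBB2, IGF1R, PDGFRA, AXL, MERTK and PTK7, whose changes were all under 2-fold. The number of receptors that rose was 9 to 12 and the number that fell 10 to 13 over all alternatives.

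Leaving out each library gave 9 to 10 receptors higher and 11 to 13 lower, and 4013 to 4790 genes higher and 4167 to 5024 lower. The replicate numbers are shared by the lines only as labels, and same-numbered libraries had a correlation of deviations of -0.368. With a replicate block 10 receptors rose and 11 fell (4456 genes higher and 4447 lower), and the IGF1R call was lost (adjusted p = 0.0522, edgeR). The crossed pairing, chosen after seeing the data, gave 10 receptors and 5322 genes higher and 13 receptors and 5336 genes lower.

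The genes that fell numbered 3130 with limma on log2(FPKM + 1) and 2959 on log2(FPKM + 0.1), against 4853 in edgeR with TMM factors. Of called genes, 64.1% and 64.4% were higher with FPKM and 64.7% with library totals, with or without the 10 highest genes, beside 49.9%. Adaptors that fell numbered 9 with either version of library totals and 8 and 7 with FPKM, in place of 16. Negative regulators that rose numbered 21 with either version of library totals in place of 13, and those that fell 4 with either FPKM setting in place of 7. Ligands that rose numbered 8 with the 5 CPM filter, which tests fewer genes, in place of 13. Of the further receptor genes, 1 rose with the 5 CPM filter and 1 with either FPKM setting, in place of 2. GRB2 had a log2 fold change of 0.20 with library totals and 0.20 without the 10 highest genes, beside 0.00 with TMM factors. Depth limits the 8 receptors that the filter left out. Without the filter edgeR called 0 of the 8 (adjusted p of 0.187 to 0.974), and DESeq2 called 0 of the 4 to which it gave an adjusted p (0.441 to 0.835), with 0 of the 8 at an unadjusted p under 0.05 in either.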
